A study of Mus musculus with 9 samples.

Results

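Toll-like receptors are sensors through which monocytes recognise microbial molecules and material from damaged cells, and 10 genes of this system were followed in sorted monocytes of a mouse model of neuromyelitis optica (NMO), an autoimmune disease in which antibodies against the water channel aquaporin 4 injure astrocytes. The genes were taken by name: the receptors Tlr1, Tlr2, Tlr4, Tlr6, Tlr7, Tlr8 and Tlr13, the co-receptors Cd14 and Ly96, and the adaptor Myd88. They are 10 of 23238 gene symbols in the count tables, and 9 of them passed the filter on low counts, as did 10107 symbols in all. Tlr4 did not pass.

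The mice were wild-type female C57BL/6N of 12 weeks. NMO_Bl_mono and NMO_Br_mono are blood and brain monocytes of mice in which antibody from patients (NMO-IgG) and human complement had been injected together into the striatum on one side, taken on day 1, and Nor_Bl_mono are blood monocytes of normal mice. Each group had 3 libraries, each from a pool of 5 mice. No library analysed here came from mice given control IgG with complement or from normal brain. Tissue of origin and injection therefore cannot be told apart in a comparison of brain with normal blood. In NMO blood against normal blood, the antibody cannot be told apart from the surgery, the injection and the complement. All cells were sorted as CD45+CD11b+P2ry12-Ly6C+Ly6G-, but brain cells came through perfusion, enzyme digestion at warm temperature and a density step, and blood cells through a gradient for mononuclear cells, so tissue and preparation cannot be told apart either. In RNA from sorted pools, fewer cells of a type and less RNA per cell cannot be told apart.

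Toll-like receptors act as pairs. Tlr2 joins with Tlr1 or Tlr6 at the cell surface and binds bacterial lipopeptides. Tlr4 binds lipopolysaccharide through its partner MD-2, the product of Ly96, to which Cd14 hands the lipid over. Tlr7, Tlr8 and Tlr13 sit in endosomes and recognise RNA, Tlr13 being a rodent receptor for bacterial ribosomal RNA. All of these signal through Myd88, an adaptor that recruits IRAK kinases and leads to NF-κB and its target genes. Monocytes are known for high Cd14 and Tlr2.

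Total counts ranged from 7584649 to 10419647 per library, and levels are given as CPM, the share of a library in parts per 1000000 counts, after scaling by TMM factors, with 3 counts taken as the floor of a library (0.273 to 0.432 CPM). NMO_Bl_mono replicate 3 stood apart: 4567 genes had a count there, against 6473 to 11556 in the other libraries, and 9 of the 10 Toll-like receptor genes were at or under the floor, only Myd88 being above it. In NMO_Br_mono replicate 2, 6 of the 10 genes were at or under the floor. Of genes at 50 CPM or more in both other libraries of the group, 22.3% were missing from the first of these and 8.26% from the second, against at most 1.94% in any other. Such zeros, given as listed, enter every mean below. All 9 monocyte markers, among them Csf1r, Ccr2 and Ly6c2, were above the floor in at least 1 library of each group. The same held for all 6 natural killer cell markers. Mean levels in brain, NMO_Bl_mono and Nor_Bl_mono were 232, 632 and 773 CPM for Ly6c2. They were 1072, 483 and 304 CPM for Ccr2 and 985, 487 and 659 CPM for Csf1r. The microglia markers summed to between 456 and 703 CPM in brain libraries, to between 0 and 53.0 CPM in NMO_Bl_mono and to between 31.2 and 74.1 CPM in Nor_Bl_mono, with Tmem119, Olfml3, Gpr34, Slc2a5 and Fcrls at the floor in all blood libraries. Neutrophil markers summed to between 435 and 1790 CPM in brain, 127 and 309 CPM in NMO_Bl_mono and 85.0 and 299 CPM in Nor_Bl_mono. The list was not uniform. S100a8 and S100a9 (brain means 450 and 390 CPM), Camp, Ngp and Csf3r had their highest group means in brain. Retnlg had 0 in all brain libraries, with means of 31.9 CPM in NMO_Bl_mono and 82.5 CPM in Nor_Bl_mono. Mmp8 had means of 75.5, 78.5 and 57.4 CPM in brain, NMO_Bl_mono and Nor_Bl_mono, and Cxcr2 reached at most 0.565 CPM. Platelet markers went the other way, with sums of 0 to 39.8 CPM in brain, 504 to 1773 CPM in NMO_Bl_mono and 341 to 2473 CPM in Nor_Bl_mono. Natural killer cell markers summed to 21.3 to 336 CPM in brain, 2047 to 2678 in NMO_Bl_mono and 1778 to 2158 in Nor_Bl_mono. Those of erythroid cells summed to 1.05 to 402 CPM in brain, 1641 to 5411 in NMO_Bl_mono and 898 to 4277 in Nor_Bl_mono. Microglia and neutrophils also carry Cd14, Tlr2 and Myd88, and the part of any of these cell types in the values below was not tested.

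**Figure D1:**
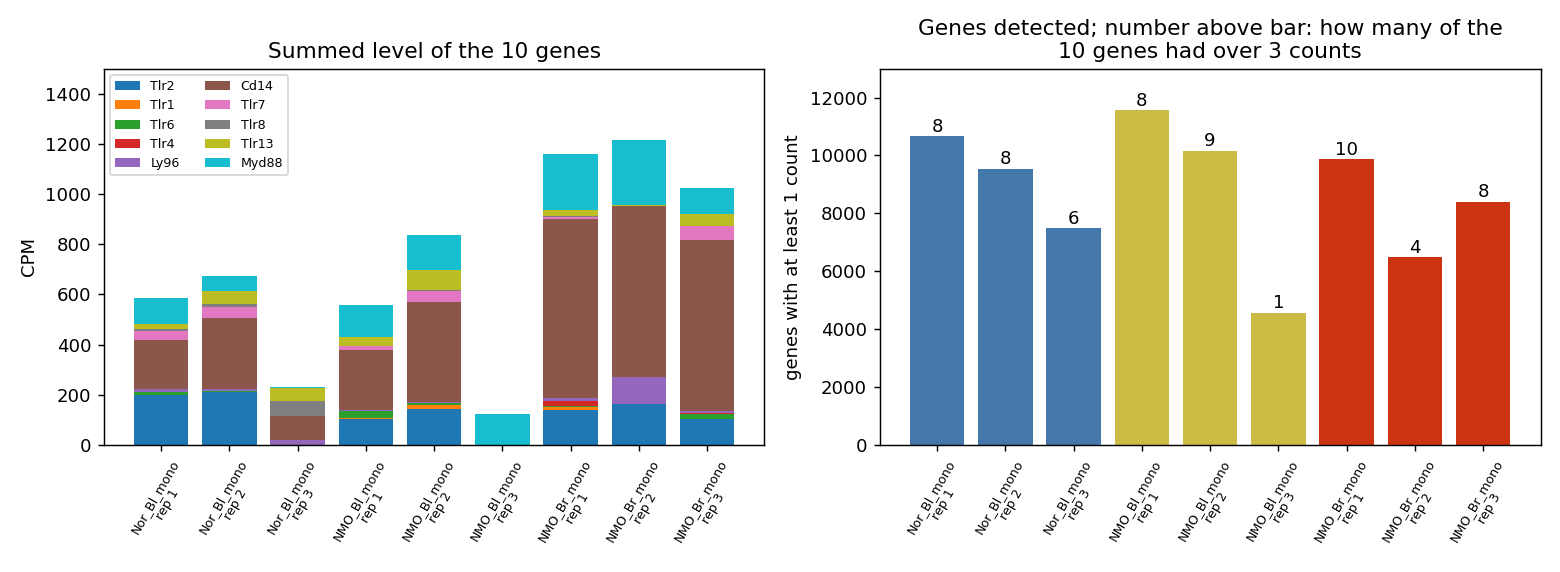
Left, the summed level in CPM of the 10 Toll-like receptor genes in each of the 9 libraries, with 1 colour for each gene. Right, how many genes had any count in each library, coloured by group, with the number of the 10 genes above 3 counts over each bar; NMO_Bl_mono replicate 3 has 4567 genes and 1 of the 10 above the floor, and the brain libraries hold the 3 largest sums, 1026 to 1215 CPM, most of it Cd14.

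Tlr2 was read in all brain libraries and in 4 of 6 blood libraries. This gene lies on chromosome 3 (mm10, 83836272 to 83841767, minus strand) and encodes the shared partner of the lipopeptide receptors. Its level was 141, 161 and 105 CPM in the 3 NMO_Br_mono libraries. In NMO_Bl_mono it was 103 and 144 CPM, with 0 in replicate 3, and in Nor_Bl_mono 201 and 212 CPM, again with 0 in replicate 3. The 4 blood libraries with counts therefore lay on both sides of the brain values, and the groups overlapped in every comparison. In edgeR's quasi-likelihood fit the log2 fold change of brain against NMO blood was 0.72 ± 1.79 (SE, n = 3 libraries per group), with a 95% interval from -3.12 to 4.56 and an adjusted p of 1. Without NMO_Bl_mono replicate 3 it was 0.15. The spread of Tlr2 within groups was an SD of 3.46 on the log2(CPM + 1) scale, against a median of 1.87 over all genes tested.

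The Tlr2 partners Tlr1 and Tlr6 were low and patchy. Tlr1 was above the floor in 3 of 9 libraries, at 3.78 and 15.5 CPM in NMO_Bl_mono replicates 1 and 2 and at 8.82 CPM in NMO_Br_mono replicate 1, with 0 counts in all 3 Nor_Bl_mono libraries. Tlr6 was above the floor in 2 libraries of each group. Its levels were 9.21 and 2.54 CPM in Nor_Bl_mono, 27.0 and 7.51 CPM in NMO_Bl_mono and 7.12 and 19.0 CPM in NMO_Br_mono, and the remaining library of each group had 0. No group separated from another for either gene. The fitted change of brain against NMO blood was -1.12 ± 3.50 for Tlr1 and -0.40 ± 3.18 for Tlr6 on the log2 scale, with edgeR adjusted p of 1 for both.

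These values carry a limit of their own, because the genes are near-identical over part of their length and reads with several alignments were counted. They are neighbours on the minus strand of chromosome 5 (mm10), Tlr1 at 64924679 to 64933563 and Tlr6 at 64952031 to 64960097. The longest coding transcripts, of 3025 and 3677 bases in GENCODE, shared 340 identical windows of 75 bases, the read length, and no other pair among the 45 pairs of the 10 genes shared any. Aligned end to end, the coding parts were identical at 73.3% of 2476 columns. The longest identical run is 229 bases, in coding sequence of exon 4 of Tlr1 (chr5:64925537-64925765) and of exon 2 of Tlr6 (chr5:64953828-64954056), and is printed because a read from it cannot be given to either gene. The capitals mark its first 75 bases, the length of 1 read.
Tlr1 and Tlr6 shared run: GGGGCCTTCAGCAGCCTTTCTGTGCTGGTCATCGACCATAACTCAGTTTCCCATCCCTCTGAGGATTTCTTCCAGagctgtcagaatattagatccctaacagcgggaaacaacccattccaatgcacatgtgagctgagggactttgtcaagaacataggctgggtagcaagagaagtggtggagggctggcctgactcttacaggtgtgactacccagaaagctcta
The run ends 858 bases before the 3′ end of the Tlr1 transcript and 1797 bases before that of Tlr6. In the last 500 bases of each transcript, where 3′ libraries gather most reads, no window was shared with the other gene. How many reads fell in the shared run cannot be told from counts per gene, so the split between Tlr1 and Tlr6 remains uncertain.

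The endosomal RNA receptors Tlr7, Tlr8 and Tlr13 all lie on the X chromosome. Tlr7 (mm10, 167304929 to 167330558, minus strand) and Tlr8 (167242696 to 167264329, minus strand) are neighbours, and Tlr13 (106143204 to 106160493, plus strand) is apart from them. Tlr7 recognises single-stranded RNA. Its levels were 35.7, 41.9 and 0.715 CPM in Nor_Bl_mono, 16.5, 41.0 and 0 CPM in NMO_Bl_mono and 11.1, 0 and 58.0 CPM in NMO_Br_mono. Each group held at least 1 library over 40 CPM and 1 under 1 CPM, and the groups overlapped throughout. Brain against NMO blood gave a log2 fold change of 0.26 ± 2.49 (edgeR, adjusted p = 1).

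Tlr13 was above the floor in 7 of 9 libraries. It was at 18.6, 52.2 and 54.8 CPM in Nor_Bl_mono, at 35.2, 81.6 and 0 CPM in NMO_Bl_mono and at 25.0, 0.0951 and 47.4 CPM in NMO_Br_mono. Those 7 libraries ranged from 18.6 to 81.6 CPM, with brain values inside the range of blood. The log2 fold change of brain against NMO blood was -0.69 ± 2.02 (edgeR, adjusted p = 1).

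Tlr8 showed the clearest order among the RNA receptors, with normal blood on top. It was present in all 3 Nor_Bl_mono libraries, at 7.05, 11.6 and 56.9 CPM. In NMO_Bl_mono it was read only in replicate 2, at 5.55 CPM, and in NMO_Br_mono only replicate 1 was above the floor, at 1.92 CPM. Every normal library was thus above every NMO library of either tissue, while blood and brain of NMO mice overlapped. On the log2 scale the fitted change was -3.76 ± 3.36 for NMO blood against normal blood and -5.20 ± 3.60 for brain against normal blood, each with an edgeR adjusted p of 1, and the exact permutation p was 0.1 in both, the smallest that 3 against 3 libraries allow. Leaving out Nor_Bl_mono replicate 3, the highest library, moved these to -2.32 and -3.76. Leaving out the only NMO library of the tissue above the floor moved them the other way, to -10.86 without NMO_Bl_mono replicate 2 and to -8.68 without NMO_Br_mono replicate 1, so the size of each rests on single libraries. With every library left in that NMO group at or under the floor, the size of the latter values is not defined. Between brain and NMO blood, where 4 of 6 libraries were at the floor, the fitted value was -1.45 ± 3.06 (edgeR, adjusted p = 1).

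The receptor complex for lipopolysaccharide was represented mainly by its co-receptors. Tlr4 (chromosome 4, mm10, 66827584 to 66930284, plus strand) had 0 counts in all 6 blood libraries. In brain it had 177 counts (20.0 CPM) in replicate 1, 0 in replicate 2 and 35 counts (3.48 CPM) in replicate 3. The gene was thus read in 2 of 3 brain libraries and in no blood library, but the range of brain included 0. With so few libraries above the floor it was not tested in the main fit. In a fit with no filter, brain against both blood groups gave an unadjusted p of 0.0245 and an adjusted p of 0.468 (edgeR). Tlr4 enters that fit only through its brain counts, against groups with 0 counts, so no conclusion is drawn from it. The exact permutation p for the same comparison was 0.167.

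Ly96 (chromosome 1, mm10, 16688051 to 16709611, plus strand) encodes MD-2, the subunit of the complex that holds the lipid. Its levels were 11.4, 6.34 and 19.2 CPM in Nor_Bl_mono, 5.18, 4.46 and 0 CPM in NMO_Bl_mono and 8.48, 109 and 8.56 CPM in NMO_Br_mono. All brain libraries were above all NMO blood libraries, and all NMO blood libraries were below all normal ones, whereas brain and normal blood overlapped. One brain library set the mean: replicate 2 had 1145 counts, and the other brain libraries 75 and 86. Brain against NMO blood gave a log2 fold change of 3.70 ± 2.44 (edgeR, adjusted p = 1), which was 1.42 without NMO_Br_mono replicate 2 and 0.83 when NMO_Bl_mono replicate 3 was left out as well. The value for NMO blood against normal blood was -1.93 ± 2.27 (edgeR, adjusted p = 1), and -1.35 without NMO_Bl_mono replicate 3.

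Cd14, the co-receptor that delivers lipopolysaccharide to the complex, was the member with the tightest and highest brain values. It is a short gene of 1732 bases on chromosome 18 (mm10, 36725067 to 36726798, minus strand). In NMO_Br_mono it was at 714, 684 and 680 CPM. In NMO_Bl_mono it was at 239, 400 and 0 CPM, and in Nor_Bl_mono at 198, 286 and 96.4 CPM. All 3 brain libraries were above all 6 blood libraries. Group means were 693 ± 18.6 CPM in brain, 213 ± 201 CPM in NMO blood and 193 ± 94.8 CPM in normal blood (SD, n = 3 each), so that the brain mean was 3.25 times that of NMO blood and 3.58 times that of normal blood.

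The change of Cd14 did not pass the test across all genes. Brain against NMO blood had a log2 fold change of 1.70 ± 1.33 (95% interval -1.14 to 4.55, edgeR adjusted p = 1), brain against normal blood 1.84 ± 1.33 (edgeR adjusted p = 1) and brain against both blood groups 1.77 ± 1.07 (edgeR adjusted p = 0.791). In the exact permutation test of 3 brain against 6 blood libraries p was 0.0238, the smallest this design allows, and 3.57% of genes tested were higher in all brain libraries than in all blood libraries. The test across genes depended on the filter: with no filter on low counts the adjusted p for brain against both blood groups was 0.00686, and over all alternatives it ranged from 0.00686 to 0.955. Without NMO_Bl_mono replicate 3, the library with no Cd14 count, the change against NMO blood was 1.13 and the adjusted p for both blood groups 0.0861. Cd14 is also among the scavenger receptor genes for which the study reported a significant increase on these libraries, so its direction is not independent evidence. In the fit used here its unadjusted p against NMO blood was 0.220 (edgeR).

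Myd88 (chromosome 9, mm10, 119335934 to 119341411, minus strand) was the only member above the floor in all 9 libraries. Its levels were 103, 61.9 and 2.76 CPM in Nor_Bl_mono, 128, 138 and 122 CPM in NMO_Bl_mono and 221, 261 and 104 CPM in NMO_Br_mono. Every NMO library, from blood or brain, was above every normal library, the closest being brain replicate 3 and normal replicate 1, while NMO blood lay within the range of brain. The log2 fold change was 1.205 ± 0.927 for NMO blood against normal blood (edgeR, adjusted p = 1), 1.81 ± 0.94 for brain against normal blood (edgeR, adjusted p = 0.724) and 0.60 ± 0.92 for brain against NMO blood (edgeR, adjusted p = 1). Without Nor_Bl_mono replicate 3, where Myd88 had 27 counts, the first was 0.64 and the second 1.26. The gene body overlaps Slc22a14 on the same strand and Acaa1a on the opposite strand, and whether the counting used strand is not given in the sources used here.

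**Figure D2:**
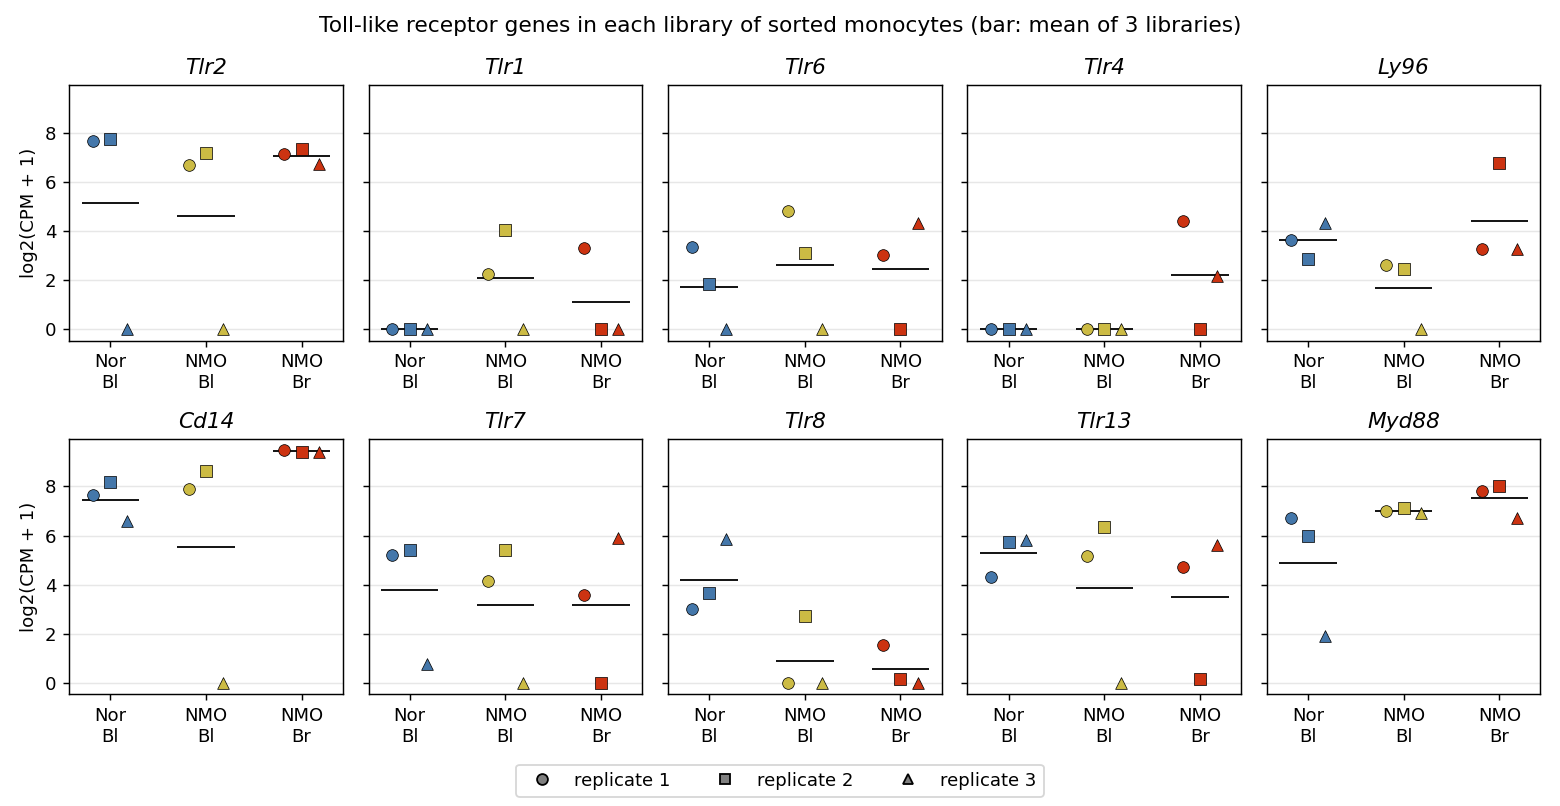
Level of each of the 10 genes as log2(CPM + 1) in Nor_Bl_mono (blue), NMO_Bl_mono (yellow) and NMO_Br_mono (red), with 1 symbol for each replicate and a bar at the mean of the 3 libraries. Cd14 in brain sits above all blood libraries (680 to 714 CPM against at most 400 CPM), Tlr8 is highest in normal blood, and triangles at 0 in NMO_Bl_mono mark replicate 3.

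Over the members as a group, brain against NMO blood, the comparison that asks what differs once monocytes have entered the lesioned brain, gave 5 higher and 4 lower fitted values among the 9 tested. None was called by edgeR, either at an adjusted p under 0.05 (0.247% of all genes tested were called) or at the threshold the study used, an unadjusted p under 0.05 with a fold change of at least 1.2 (5.32% of all genes). Their median log2 fold change was 0.26, against 0.05 over all genes, but its sign rested on single libraries: leaving out NMO_Br_mono replicate 3 gave -0.53, and leaving out NMO_Bl_mono replicate 2 gave 1.45. Cd14 and Ly96 did not overlap between these groups, both higher in brain, where 6.3% of all genes were higher without overlap. No member was lower without overlap, as 6.05% of all genes were. The smallest unadjusted p among the members was 0.152, for Ly96, by edgeR, and under other tools or filters Cd14 or Ly96 passed the unadjusted threshold but never the adjusted one.

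For NMO blood against normal blood, which asks whether circulating monocytes changed, 4 members were higher and 5 lower. None passed edgeR's test at the adjusted threshold (0% of all genes did) or at the unadjusted one (0.712% of all genes). The median was -0.10 for the members and -0.16 for all genes, and single libraries turned its sign, from -0.97 without NMO_Bl_mono replicate 2 to 0.31 without NMO_Bl_mono replicate 3. Myd88 was higher without overlap, as were 2.34% of all genes, and Tlr8 and Ly96 were lower without overlap, as were 4.45%. In limma-voom, Tlr1 and Tlr8 passed the unadjusted threshold, and in DESeq2 Tlr1 alone, a gene with no count in normal blood.

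For brain against normal blood, 5 members were higher and 4 lower, and again none was called by edgeR at the adjusted threshold (0.247% of all genes) or the unadjusted one (5.82%). Here the median over the members was 1.15, against -0.12 over all genes. This median is the value of Tlr6 (1.15 ± 3.22), with Tlr2 next below it at -0.02. It counts Tlr1 as higher, a gene with 0 counts in normal blood and above the floor in 1 brain library. The bound that the floor sets for Tlr1, 3.06, also lies above the median, so using it could not move the median. The median was 0.149 without NMO_Br_mono replicate 1, 0.147 without NMO_Br_mono replicate 3 and 0.576 with only the libraries compared. Cd14 and Myd88 were higher without overlap (6.07% of all genes) and Tlr8 was lower (9.37% of all genes). Against both blood groups together, 7 were higher and 2 lower, none was called by edgeR (0.435% of all genes at the adjusted and 6.89% at the unadjusted threshold), Cd14 alone was higher without overlap, and none was lower without overlap (3.13% of all genes). Tlr1 counted among the 7 through its fitted value against the 0 counts of normal blood. Its mean was 2.94 CPM in brain and 3.21 CPM over both blood groups. The comparisons share libraries, so they are not separate evidence.

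**Figure D3:**
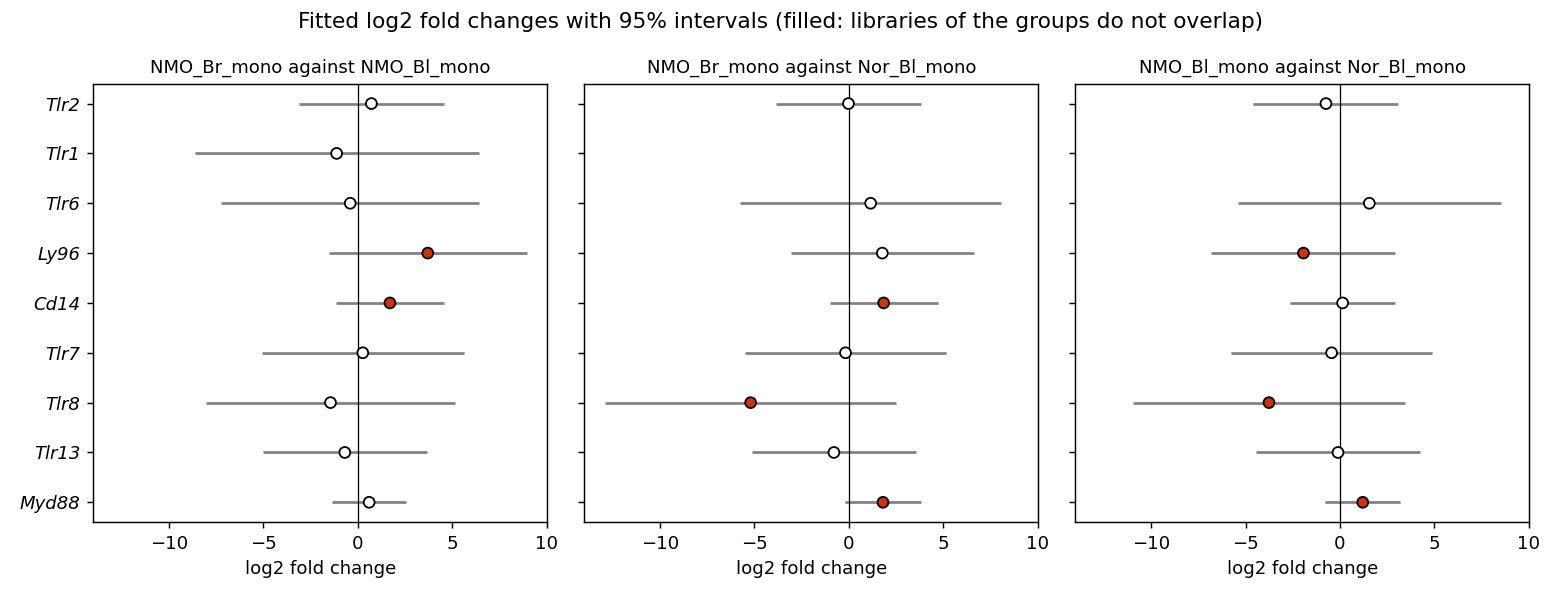
Fitted log2 fold change (points) with 95% interval (lines) of the members tested, in 3 comparisons by edgeR. Filled points mark members whose groups do not overlap; every interval includes 0, from the narrowest (Myd88, SE 0.92 in brain against NMO blood) to the widest, and Tlr1 is not drawn against normal blood, where it had 0 counts, nor is Tlr4, which was not tested.

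The genes whose pattern over the 9 libraries was most like that of Cd14, among 2923 genes with a mean of at least 50 CPM, were Magt1 (Pearson r = 0.997 on log2(CPM + 1)), Lsr, Fam105a, Mdh2 and Bcl2a1a (r = 0.988). For Myd88 they were Mcemp1 (r = 0.971), Cfdp1, Arid5b, Cetn3 and Immt (r = 0.948). For Cd14 the points share the zeros of NMO_Bl_mono replicate 3, in which Cd14 had none of its counts. Myd88 was at 122 CPM there and had its lowest value, 2.76 CPM, in Nor_Bl_mono replicate 3. The correlations describe this set of libraries only. Among the members, Tlr2 was nearest to Cd14 (r = 0.785), and Tlr8 was farthest (r = 0.0902).

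The rest of the pathway was described with 50 further genes sorted by role, of which 41 were tested. In brain against NMO blood 1 of the 41 was called at the adjusted threshold, and 5 at the unadjusted one, all lower in brain, where 0.247% and 5.32% of all genes were called. The median of the 41 was -0.42, against 0.05 over all genes. In brain against normal blood 2 passed the unadjusted threshold as higher (Hsp90b1 and Il1b) and 6 as lower, and against both blood groups 1 as higher (Il1b) and 6 as lower, where 5.82% and 6.89% of all genes passed in either direction. In both of these comparisons 1 of the 6 was Il6, which had 0 counts in all brain libraries. The size of its fitted value is therefore not defined, and no conclusion is drawn from this call. Ccl5 was the only gene called at the adjusted threshold in each of these comparisons. Among the other receptors and their partners, 3 of 7 were tested and none was called. Ly86, the partner of the Tlr4 homologue Cd180, was at 46.4, 34.5 and 56.3 CPM in brain and at 35.6, 37.5 and 3.45 CPM in NMO blood. Cd180 was read in 1 of 3 brain libraries, and Tlr12, a receptor for profilin, only in NMO_Br_mono replicate 2 (86.1 CPM) and Nor_Bl_mono replicate 1 (5.03 CPM).

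Genes for ligand transfer and for the folding and trafficking of receptors were all tested, 6 of 6. In brain against NMO blood 5 were higher, 1 was lower and none was called. Hsp90b1, the chaperone gp96 on which most Toll-like receptors depend, was the steadiest, at 510, 756 and 669 CPM in brain, 477, 535 and 358 CPM in NMO blood and 369, 430 and 320 CPM in normal blood. Brain was above all normal blood libraries and overlapped NMO blood, and the log2 fold change against normal blood was 0.79 ± 0.36 (edgeR, unadjusted p = 0.0478, adjusted p = 0.708). Unc93b1, which carries the endosomal receptors to their compartment, had a fitted change of 0.45 ± 1.30 against NMO blood, and Cnpy3, a co-chaperone of gp96, one of 1.18 ± 1.45.

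Adaptors other than Myd88 had 4 of 5 genes tested and none called. Ticam1, the adaptor TRIF of Tlr3 and Tlr4, was at 29.3, 0 and 22.8 CPM in brain and 24.7, 45.2 and 0 CPM in NMO blood. Tirap, which brings Myd88 to Tlr2 and Tlr4, was read in 1 brain library (26.2 CPM), and Pik3ap1 averaged 17.1 CPM in brain and 29.8 CPM in NMO blood. All 3 overlapped between these groups.

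Kinases and ubiquitin ligases below Myd88 had 9 of 12 lower fitted values in brain against NMO blood, with a median of -0.85, and none was called at the adjusted threshold. Peli1, a ligase that acts on IRAK proteins, was at 42.2, 72.5 and 109 CPM in brain, 149, 331 and 142 CPM in NMO blood and 225, 374 and 253 CPM in normal blood. Every brain library was below every blood library, and the log2 fold change against NMO blood was -1.48 ± 0.59 (edgeR, unadjusted p = 0.0258, adjusted p = 0.802). Tab2, an adaptor of the kinase TAK1, had a value of -0.48 ± 0.53 and Irak2 one of -0.83 ± 0.67, with overlapping libraries for both.

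Of the inhibitors, 5 of 6 were tested, 3 higher and 2 lower. Tnfaip3, which encodes A20, an enzyme that shuts off NF-κB signalling, was at 2.60, 146 and 53.7 CPM in brain, 599, 608 and 369 CPM in NMO blood and 600, 586 and 261 CPM in normal blood. No brain library reached the lowest blood library. The log2 fold change against NMO blood was -2.96 ± 0.92 (edgeR, unadjusted p = 0.0061, adjusted p = 0.534). Tollip and Irak3, which restrain IRAK signalling, ranged from 0 to 142 CPM and from 1.19 to 71.3 CPM in brain, across the blood values.

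Among the 14 target genes, 11 were tested, with 4 higher and 7 lower in brain against NMO blood and a median of -0.91. Ccl5, a chemokine, was the 1 pathway gene called: it fell from 1560, 1508 and 1397 CPM in NMO blood to 21.3, 130 and 141 CPM in brain, a log2 fold change of -3.93 ± 0.57 (edgeR, adjusted p = 0.0103), and stood at 1939, 1191 and 1178 CPM in normal blood. Ccl5 is also a transcript of natural killer (NK) cells, and the 6 NK cell markers, all above the floor in at least 1 library of each group, summed to between 2047 and 2678 CPM in NMO blood, 1778 and 2158 CPM in normal blood and 21.3 and 336 CPM in brain. Their part in the Ccl5 difference was not tested. The call was not kept when only the libraries compared were fitted (edgeR adjusted p = 0.0983) or in limma-voom with quality weights (adjusted p = 0.165).

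Nfkbia, which encodes the NF-κB inhibitor IκBα and is itself an NF-κB target, was at 1656, 3124 and 1783 CPM in brain. In NMO blood it was at 9081, 8252 and 1417 CPM, and in normal blood at 9311, 8189 and 1737 CPM. The third library of each blood group lay in or below the range of brain, so the groups overlapped, and the log2 fold change against NMO blood was -1.51 ± 0.61 (edgeR, unadjusted p = 0.026, adjusted p = 0.802). Cxcl2, a neutrophil chemokine, had 297, 944 and 784 CPM in brain and 1878, 1920 and 0 CPM in NMO blood, with a value of -0.91 ± 1.55. Nfkbiz, Il1b and Il6 are named because they passed the unadjusted threshold in at least 1 comparison and not by the rule for named genes. For Nfkbiz the value was -2.12 ± 0.97 (edgeR, adjusted p = 0.802). Il6, an inflammatory cytokine, had 0 counts in all brain libraries and 0 to 34.1 CPM in blood, so the size of its fitted change is not defined. Calls at that threshold against NMO blood were thus Ccl5, Nfkbia, Nfkbiz, Peli1 and Tnfaip3, all lower in brain, and for NMO blood against normal blood none of the 41 genes passed either threshold by edgeR.

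Il1b, the cytokine interleukin-1β, went the other way from most of the list. It was at 1595, 1515 and 961 CPM in brain, 239, 306 and 0 CPM in NMO blood and 111, 123 and 0.102 CPM in normal blood. All brain libraries were above all blood libraries. The log2 fold change was 2.90 ± 1.72 against NMO blood (edgeR, unadjusted p = 0.114, adjusted p = 0.903), 4.12 ± 1.82 against normal blood (edgeR, unadjusted p = 0.0398, adjusted p = 0.708) and 3.51 ± 1.36 against both blood groups (edgeR, unadjusted p = 0.0216, adjusted p = 0.618). The study also reported a significant increase of Il1b in brain on these libraries. Its quantitative PCR of tissue separately showed more Il1b on day 1 and less after monocytes were depleted with clodronate. The neutrophil and microglia marker sums given above were higher in brain as well, though not every neutrophil marker was. The part of these cells in the Il1b difference was not tested.

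**Figure D4:**
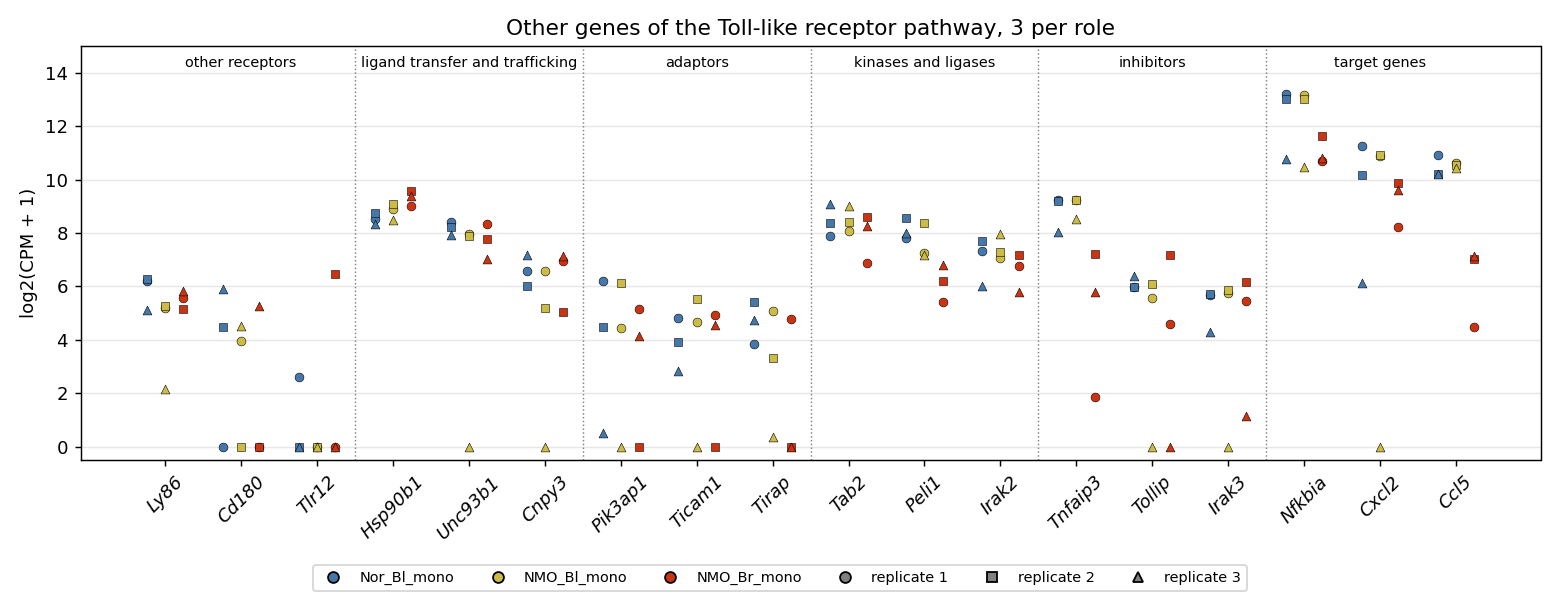
Level as log2(CPM + 1) of 18 other pathway genes, the 3 with the highest mean of each of 6 roles, in Nor_Bl_mono (blue), NMO_Bl_mono (yellow) and NMO_Br_mono (red), with 1 symbol for each replicate. Ccl5, Tnfaip3 and Peli1 lie below all blood libraries in brain, and Nfkbia overlaps because replicate 3 of each blood group is low (1417 and 1737 CPM).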

How the data were processed

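The authors sorted monocytes from pools of 5 mice, made QuantSeq 3′ libraries, used Bowtie2 for alignment and bedtools for counting, where reads with several alignments were included, and deposited raw counts per gene symbol. The build in the labels is mm10; tool versions and gene annotation are not given in the sources used here. The TMM and CPM values the study computed were not used. Groups and replicate numbers came from the sample labels.

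Of 23282 entries per library, 35 symbols were listed more than once, and of these the largest entry was used. In R 4.3.3, edgeR 4.0.16 (glmQLFit, glmQLFTest) with TMM factors and filterByExpr was fitted to all 9 libraries, with Benjamini-Hochberg adjustment over 10107 genes. Rn45s, a ribosomal RNA entry, took 28.4% to 43.6% of counts and was left in, except in 1 alternative. Single genes were also compared by two-sided exact permutation tests on log2(CPM + 1). Total counts were 7584649 or more per library. The SE of a fitted value reflects the spread between libraries, and the source of that spread was not tested. Alternatives were limma 3.58.1 (voom with quality weights), DESeq2 1.42.0, RLE factors, library sizes alone, other filters, a replicate block and each library left out. Replicate libraries correlated at 0.517 to 0.804 and none was a duplicate of another. Gene positions came from GENCODE on GRCm38 (mm10), and sequences were compared in Python 3.11.15 with Biopython 1.88.

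The genes and lists were chosen with earlier results of these data known. Named are all 10 members, the 3 genes of each role with the highest mean CPM, and the 5 genes most correlated with each of the 2 members with the highest mean CPM. The member with the highest mean was Cd14, and the next Myd88.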

Additional observations from a re-analysis of the deposited data

How the results depend on the processing

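Of the members in the 4 comparisons, 0 were called at an adjusted p under 0.05 under every alternative except the fit with no filter, which called 1 (Cd14, log2 fold change 1.75 against both blood groups). At the unadjusted threshold, where the main count was 0 in each comparison, counts were as follows. Brain against NMO blood gave 1 with no filter, in DESeq2, in limma-voom and when NMO_Bl_mono replicate 3 and NMO_Br_mono replicate 2 were both left out, an alternative chosen after seeing the data, and 0 to 1 with single libraries left out. NMO blood against normal blood gave 1 in DESeq2 and 2 in limma-voom. Brain against normal blood gave 1 with library sizes alone, with only the libraries compared, in DESeq2, in limma-voom and with both libraries left out, 2 with no filter, and 0 to 1 with single libraries left out. Brain against both blood groups gave 2 with no filter and with both libraries left out, 1 in limma-voom and 0 to 2 with single libraries left out, Tlr4 entering where the filter let it pass. Tlr4 had 0 counts in all blood libraries, so no conclusion is drawn from its entries.

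The replicate numbers were not taken to pair the samples, since correlations of deviations ran from -0.01 to 0.12 and were not over 0.1 in every pair. The 3 Nor_Bl_mono libraries were each closest to the NMO_Bl_mono library of their number, a hint from the data, and brain libraries were not all closest to theirs. With the replicate block, 1 member (Myd88) passed the unadjusted threshold for brain against normal blood, no adjusted call of a member was gained, and Tlr6 against NMO blood changed sign to 2.19, while Tlr2 moved from 0.72 to 4.76 and Tlr7 from 0.26 to 2.45. The median of the members against NMO blood was 2.19 with the block and -0.52 in limma-voom, and for NMO blood against normal blood it was 0.50 in limma-voom. Tlr7 was -1.02 in limma-voom. With single libraries left out, log2 fold changes of brain against NMO blood reached both signs for Tlr1 (-8.90 to 0.65), Tlr6 (-1.68 to 1.21), Tlr7 (-1.78 to 1.49), Tlr8 (-4.93 to 5.67) and Tlr13 (-1.62 to 0.47). The -8.90 of Tlr1 and both ends for Tlr8 were fitted with every library left in 1 group at or under the floor. Their size is therefore not defined. For brain against both blood groups, the count of members with an exact permutation p under 0.05 was 1 (Cd14) and 0 with both libraries left out. Cd14 still did not overlap there, and the number of splits that remains sets this change. Pathway genes called went from 1 to 5 with no filter and to 0 with only the libraries compared and in limma-voom. The cause was not tested. Depth was alike across libraries, and genes under 3 counts cannot be told from absent ones.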
